A study of Mus musculus with 2 samples.

Results

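The creatine and adenylate kinase energy shuttle is described here by 9 genes, each taken as the table entry with exactly that symbol, out of 30385 entries. They are the creatine kinases Ckm, Ckb, Ckmt1 and Ckmt2, the adenylate kinases Ak1 and Ak3, the creatine transporter Slc6a8 and the creatine synthesis enzymes Gatm and Gamt. The study sequenced transcript 5′ ends from mouse hearts by 5′RNA-seq, which uses intact polyA RNA with no fragmentation, so reads gather near transcription starts. There were 2 libraries, 1 from MHC403/+ mice, which model hypertrophic cardiomyopathy through a myosin heavy chain mutation, and 1 from wild-type (WT) mice. All animals were of the same strain, an SvEv strain by its label, and were 8 to 16 weeks old. They had been given cyclosporine A (CsA, a calcineurin inhibitor) under the skin at 15 mg/kg, with 2 daily injections over 2 weeks. Each library pooled biological replicates, a number of animals not given in the labels, so differences below have no check against replicates and carry no p-value. Hearts without the drug are not analysed here, and effects of genotype alone and of genotype under CsA cannot be told apart.

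Creatine kinase moves a phosphate group reversibly between ATP and creatine. In striated muscle the sarcomeric mitochondrial isoform, Ckmt2, makes phosphocreatine beside the site of ATP export from mitochondria, and the muscle isoform, Ckm, uses it to restore ATP at myofibrils and ion pumps. Ckb, the brain isoform, and Ckmt1, the ubiquitous mitochondrial isoform, do the same in brain, smooth muscle and other tissues. Adenylate kinase interconverts ADP with ATP and AMP. Ak1 does this in the cytosol, and Ak3 is a matrix enzyme that uses GTP. Heart muscle takes up creatine through Slc6a8, while Gatm and Gamt catalyse the first and last steps of its synthesis, best known in kidney and liver.

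The upstream sequences of the 4 creatine kinase genes are shown because these genes split by isoform in the reads described next. Each is the stretch of 250 bases that ends just before the RefSeq start, 5′ to 3′ on the gene's strand, in build GRCm38.p6, with matches to the motifs searched in capitals. Ckm lies at chr7:19410844-19411093 on the plus strand, Ckmt2 at chr13:91876886-91877135 on the minus strand, Ckb at chr12:111672339-111672588 on the minus strand, and the upstream of the 2 Ckmt1 starts at chr2:121357526-121357775 on the plus strand.
Ckm: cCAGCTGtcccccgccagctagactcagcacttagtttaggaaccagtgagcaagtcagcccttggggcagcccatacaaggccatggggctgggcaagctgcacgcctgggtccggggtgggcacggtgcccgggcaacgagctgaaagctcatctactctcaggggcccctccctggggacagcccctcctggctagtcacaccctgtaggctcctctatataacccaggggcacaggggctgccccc
Ckmt2: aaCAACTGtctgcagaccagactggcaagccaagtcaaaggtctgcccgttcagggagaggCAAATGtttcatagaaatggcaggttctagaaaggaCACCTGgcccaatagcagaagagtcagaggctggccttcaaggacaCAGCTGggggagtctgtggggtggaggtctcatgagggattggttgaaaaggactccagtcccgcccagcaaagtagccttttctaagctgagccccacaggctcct
Ckb: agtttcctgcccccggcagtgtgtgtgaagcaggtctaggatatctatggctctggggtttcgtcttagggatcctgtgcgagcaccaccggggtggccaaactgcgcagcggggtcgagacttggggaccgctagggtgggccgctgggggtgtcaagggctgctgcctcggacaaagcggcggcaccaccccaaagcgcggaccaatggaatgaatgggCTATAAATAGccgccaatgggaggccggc
Ckmt1: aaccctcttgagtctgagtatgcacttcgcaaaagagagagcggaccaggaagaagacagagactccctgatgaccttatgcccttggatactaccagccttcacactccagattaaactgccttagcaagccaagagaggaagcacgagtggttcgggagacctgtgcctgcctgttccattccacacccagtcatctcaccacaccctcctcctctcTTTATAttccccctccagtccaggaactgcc

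The motifs searched, on both strands, were TATAAA, the E-box CANNTG (bound by basic helix-loop-helix factors such as MyoD), the estrogen-related receptor element TNAAGGTCA, and the MEF2 and CArG boxes. The muscle isoforms held E-boxes and no exact TATAAA in this window, with 1 E-box in Ckm at base -249 and 4 in Ckmt2 between bases -248 and -102, counted from the start. Only exact matches were counted, and the Ckm sequence holds the near match tatataa shortly before its start. Ckb and the Ckmt1 start shown held TATAAA and no E-box. The other Ckmt1 start, not shown, held no match to any motif searched. In Ckb TATAAA ran from base -28 to -23 and overlapped a MEF2 box match at -29 to -20. At the Ckmt1 start shown it lay at -31 to -26 on the opposite strand. Among all 32851 RefSeq promoter windows of this length, 66.2% held CANNTG, 12.4% TATAAA and 0.508% a MEF2 box. Of the 9 genes 8 had a RefSeq promoter, 12 promoters in all, and none of the 12 held TNAAGGTCA or a CArG box, which 1.14% and 1.47% of all windows held. CANNTG was in 7 of the 12, from Ak1 and Gatm as well as Ckm and Ckmt2, TATAAA in 2 and a MEF2 box in 1.

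The libraries held 5468677 reads (MHC403) and 5481123 reads (WT). Myh6, with 55171 reads in MHC403 and 132965 in WT, is counted without regard to allele and does not check the genotype labels. An entry is called measured where its higher library held 50 reads or more, which 9507 did, and each ratio divides MHC403 by WT reads scaled to the library totals. Ranges after a ratio, level or share are exact (Clopper-Pearson) 95% intervals, which cover counting error only and not differences between animals. The median log2 ratio of all measured entries was 0.57, and the scaling by median of ratios, under which all log2 ratios are 0.55 lower, moves that median to 0.022. Entries on the mitochondrial chromosome took 13.7% of reads in MHC403 and 29.5% in WT. The 8 ventricular myocyte markers summed to 38842 RPM (reads scaled to a library total of 1000000) in MHC403 and 70569 RPM in WT, a ratio of 0.550 (0.548 to 0.553), with none at 0. Single markers ran from a log2 ratio of -1.27 to 0.074, and 6 of the 8 had intervals below a ratio of 1. Fibroblast markers summed to 3010 RPM in MHC403 and 456 in WT, with all 6 higher. Fewer cells of a type and less RNA per cell cannot be told apart in such bulk samples.

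The 9 genes together took 0.252% of MHC403 reads (0.248 to 0.256) and 0.402% of WT reads (0.397 to 0.407). The sum was 1.60-fold (1.56 to 1.63) lower in MHC403. The muscle-type kinases Ckm and Ckmt2 were lower, as was Ak1, while Ckb and Slc6a8 were higher and Ak3 was near a ratio of 1. Of the 7 measured genes none was at least 2-fold higher and none at least 2-fold lower, against 26.1% and 2.43% of all measured entries. With median-of-ratios scaling 3 of the 7 (Ckm, Ckmt2 and Ak1) were at least 2-fold lower and none was higher, against 7.59% and 10.9% of all measured entries. The same 3 were at least 2-fold lower with TMM scaling, against 7.55% of all, and Ckm and Ckmt2 with totals that leave out the mitochondrial chromosome, against 4.21%. At 1.5-fold with library totals Ckb was higher, against 49.1% of all, and Ckm and Ckmt2 were lower, against 5.62%. Of the 397 entries whose higher library held at least 2000 reads, a class that holds Ckm and Ckmt2, 15.9% were at least 1.5-fold lower. Ckmt1 passed the minimum of 50 reads only in MHC403, and Gatm and Gamt passed it in neither library.

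**Figure D1:**
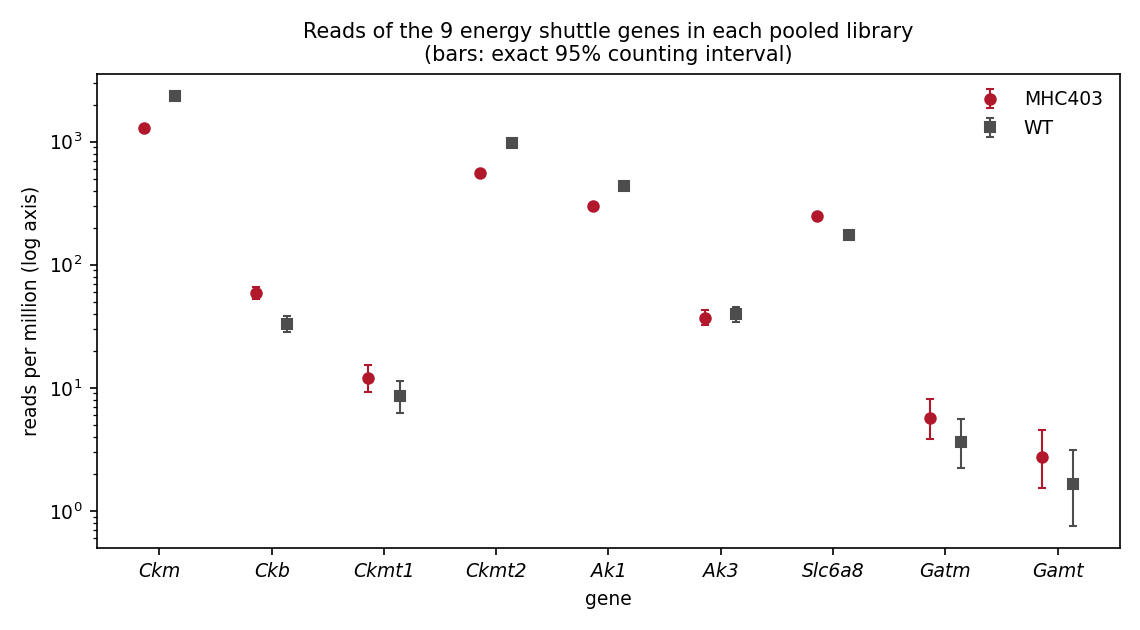
RPM on a log axis for each of the 9 genes, with circles for the MHC403 library, squares for the WT library and error bars for exact 95% counting intervals. Ckm and Ckmt2 are the highest genes in both libraries and lower in MHC403 (1292 against 2347 RPM for Ckm), whereas Ckb and Slc6a8 are higher in MHC403.

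Ckm (creatine kinase M-type, chromosome 7, 19996443 to 20006932 on mm9, plus strand) had 7066 reads in MHC403 and 12865 in WT. These were 1292 RPM (1262 to 1323) in MHC403 and 2347 RPM (2307 to 2388) in WT, and the ranges do not overlap. The gene was 1.82-fold (1.76 to 1.87) lower in MHC403, a log2 ratio of -0.86, and 3.05% of measured entries had a lower ratio. Its ratio of 0.550 (0.535 to 0.567) stood at the same value as that of the summed myocyte markers. Positions of this and the following genes are on mm9. Of skeletal muscle, where Ckm is also abundant, the 8 markers summed to 61.3 RPM in MHC403 and 161 RPM in WT, a ratio of 0.379 (0.334 to 0.431). All 3 measured ones, Myh1, Myh2 and Myh4, were at least 2-fold lower, against 2.43% of all measured entries. These 3 held most reads of the sum, which thus rests on myosin genes, and Myh2 shares a counted window with Myh8. Of the markers under the read minimum, Tnni2 had 4 reads in each library and Mylpf 3, and Pvalb had 2 in MHC403 and 0 in WT. Tnnt3 went the other way beyond counting error, with 24 reads in MHC403 and 1 in WT. Actn3 had 18 in MHC403 and 15 in WT. The part of either list in the Ckm value was not tested.

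Ckmt2 (chromosome 13, 91992992 to 92016490, minus strand) had 3055 reads in MHC403 and 5335 in WT, or 559 RPM (539 to 579) in MHC403 and 973 RPM (947 to 999.8) in WT. It was 1.74-fold (1.67 to 1.82) lower in MHC403, a log2 ratio of -0.80. The cytosolic and mitochondrial muscle isoforms differed by nearly the same factor. The ratio of Ckmt2 to Ckm reads in MHC403 was 1.04 times (0.988 to 1.10) that in WT, an interval that includes 1. Together they were 1.79-fold (1.75 to 1.84) lower.

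Ckb (chromosome 12, 112907566 to 112910549, minus strand) had 324 reads in MHC403 and 181 in WT, or 59.2 RPM (53.0 to 66.1) in MHC403 and 33.0 RPM (28.4 to 38.2) in WT. It was 1.79-fold (1.49 to 2.16) higher in MHC403, and 66.4% of measured entries had a lower ratio. Of the 9 genes it had the highest ratio, and it stayed above 1 with median-of-ratios scaling, at a log2 ratio of 0.30 (0.029 to 0.57). Of tissues where Ckb is abundant, the 6 smooth muscle markers summed to 322 RPM in MHC403 and 196 RPM in WT, with none at 0. Of 4 measured markers 2 (Acta2 and Tagln) were at least 2-fold higher, against 26.1% of all measured entries. With median-of-ratios scaling 1 was, against 10.9%. Myh11 had a ratio of 1.03 (0.827 to 1.29) and Smtn of 1.14 (1.01 to 1.30). Lmod1, under the read minimum, was lower, with 17 reads in MHC403 and 45 in WT, a ratio of 0.379 (0.203 to 0.675). The 7 nerve and glia markers had 69 reads in MHC403 and 17 in WT in all, of which Tubb3 had 33 in MHC403 and 0 in WT, none was measured, and the neuronal marker Snap25 was at 0 in both. Their part in the Ckb value was not tested.

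Ckmt1 (chromosome 2, 121183536 to 121189473, plus strand) had 66 reads in MHC403 and 47 in WT, 12.1 RPM (9.33 to 15.4) in MHC403 and 8.57 RPM (6.30 to 11.4) in WT, and these ranges overlap. The ratio was 1.41 (0.954 to 2.09), so at this depth no difference in the library-scaled reads was detectable. Counts of a gene can take reads from near-identical copies. Among 36-base words of the first 200 transcript bases, none of those from the 4 creatine kinase genes occurred in another gene, although 32.5% of all Ckb words did. The genes sharing most of these were Gm12892, Ckb-ps2 and Ckb-ps1, which RefSeq lists as pseudogenes.

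The balance of isoforms within a library does not depend on scaling. Ckb made up 4.38% (3.93 to 4.88) of Ckb plus Ckm reads in MHC403 and 1.39% (1.19 to 1.60) in WT, an odds ratio of 3.26 (2.70 to 3.94). Ckmt1 made up 2.11% (1.64 to 2.68) of Ckmt1 plus Ckmt2 reads in MHC403 and 0.873% (0.642 to 1.16) in WT, an odds ratio of 2.45 (1.66 to 3.65). In each compartment the brain or ubiquitous isoform took a larger share in MHC403 than in WT, beyond counting error, and remained the minor isoform in both libraries. Both shares carry the low ratios of Ckm (0.550) and Ckmt2 (0.574). The median ratio of all measured entries was 1.48, beside 1.79 for Ckb and 1.41 for Ckmt1. A larger share against Ckm and Ckmt2 is thus not particular to the brain and ubiquitous isoforms. Per length of counted window, Ckm had 3230 RPM per kb in MHC403 and 5868 in WT, and Ckb 148 in MHC403 and 82.6 in WT. Ckmt2 had 1397 RPM per kb in MHC403 and 2433 in WT, and Ckmt1 16.0 in MHC403 and 11.4 in WT.

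**Figure D2:**
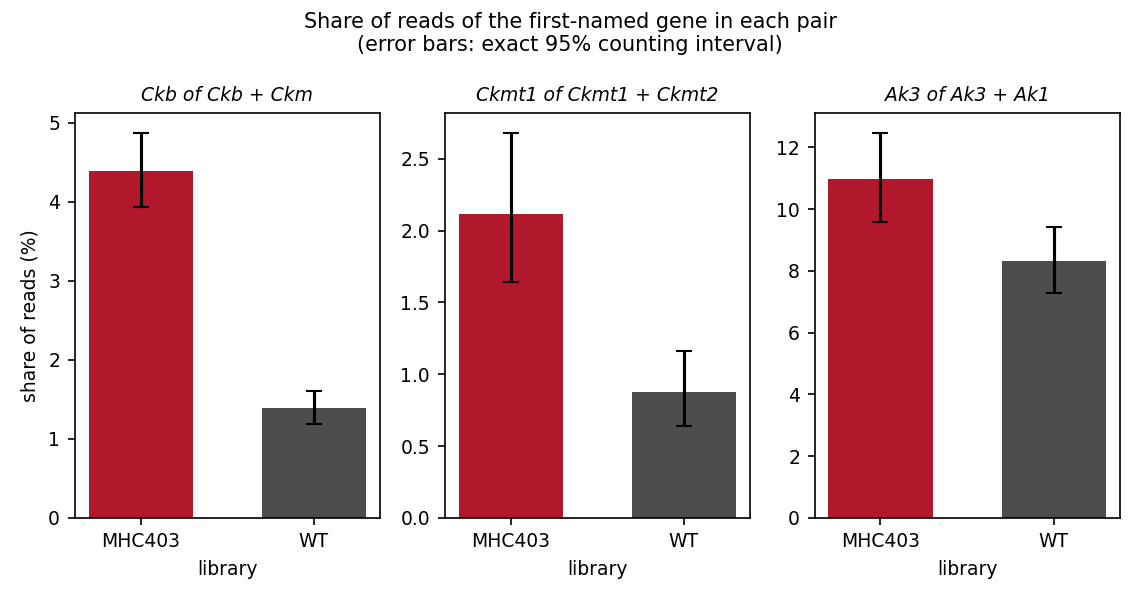
Share of reads, in percent, of Ckb among Ckb plus Ckm, of Ckmt1 among Ckmt1 plus Ckmt2 and of Ak3 among Ak3 plus Ak1, with MHC403 on the left of WT in each panel, axes from 0 and error bars for exact 95% counting intervals. The Ckb share is 4.38% in MHC403 and 1.39% in WT, and the intervals of the libraries do not overlap in any of the 3 panels.

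Ak1 (chromosome 2, 32477278 to 32490578, plus strand), with 4 annotated starts counted together, had 1648 reads in MHC403 and 2394 in WT, or 301 RPM (287 to 316) in MHC403 and 437 RPM (419 to 455) in WT. It was 1.45-fold (1.36 to 1.54) lower in MHC403. The deficit was smaller than that of Ckm: the ratio of Ak1 to Ckm reads in MHC403 was 1.25 times (1.17 to 1.34) that in WT.

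Ak3 (chromosome 19, 29095322 to 29122392, minus strand) had 203 reads in MHC403 and 217 in WT, 37.1 RPM (32.2 to 42.6) in MHC403 and 39.6 RPM (34.5 to 45.2) in WT. Its ratio of 0.938 (0.770 to 1.14) was not distinguishable from 1 at this depth, though with median-of-ratios scaling the log2 ratio was -0.64 (-0.92 to -0.36). Ak3 was 11.0% (9.58 to 12.5) of Ak3 plus Ak1 reads in MHC403 and 8.31% (7.28 to 9.44) in WT, an odds ratio of 1.36 (1.10 to 1.67). With all 7 listed adenylate kinase entries in the denominator the odds ratio was 1.19 (0.973 to 1.47), an interval that includes 1. The counted window of Ak3 was 200 bases, without the stretch before its start. An opposite-strand entry covers that start, and 77.9% of the 36-base words in the first 200 bases of Ak3 transcripts occur in other genes on either strand, so its reads are uncertain where strand was not used.

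Slc6a8 (chromosome X, 70918472 to 70927839, plus strand) had 1371 reads in MHC403 and 963 in WT, 251 RPM (238 to 264) in MHC403 and 176 RPM (165 to 187) in WT. It was 1.43-fold (1.31 to 1.55) higher in MHC403 with library totals. That ratio was close to the median of all measured entries, and 46.6% of these had a lower ratio. With median-of-ratios scaling the log2 ratio was -0.035 (-0.15 to 0.086), so the direction rests on the scaling. Against Ckm, which needs no scaling, the ratio of Slc6a8 to Ckm reads in MHC403 was 2.59 times (2.37 to 2.83) that in WT. That value carries the low ratio of Ckm (0.550) and does not by itself show a higher level of Slc6a8.

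Creatine synthesis genes gave few reads in either library. Gatm (chromosome 2, 122420209 to 122437013, minus strand) had 31 reads in MHC403 and 20 in WT, a ratio of 1.55 (0.858 to 2.88). Gamt (chromosome 10, 79720896 to 79723713, minus strand) had 15 in MHC403 and 9 in WT, a ratio of 1.67 (0.685 to 4.33). Both intervals include 1. Summed, the synthesis genes had 46 reads in MHC403 and 29 in WT, 1.59-fold (0.978 to 2.62).

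**Figure D3:**
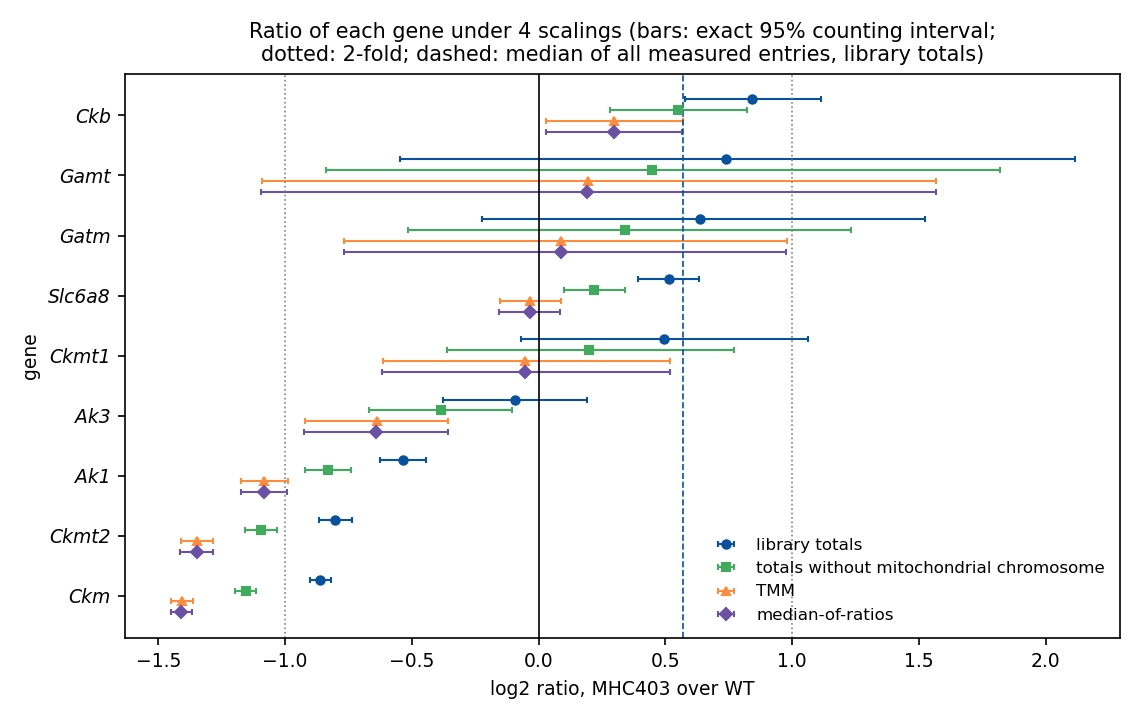
Log2 ratio of MHC403 over WT for each gene under 4 scalings (symbols and colours), with error bars for exact 95% counting intervals, dotted lines at 2-fold and a dashed line at the median of all measured entries. With library totals no gene lies past 2-fold, while Ckm, Ckmt2 and Ak1 pass it downward with median-of-ratios scaling, at -1.41, -1.35 and -1.08.

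By counting error alone, 2 of the 7 measured genes had intervals above a ratio of 1 (Ckb and Slc6a8) and 3 had intervals below it (Ckm, Ckmt2 and Ak1). Of all measured entries 63.2% had intervals above 1 and 10.3% below. With median-of-ratios scaling Ckb alone lay above, against 29.6% of all, and Ckm, Ckmt2, Ak1 and Ak3 lay below, against 28.4%. The median log2 ratio of the 7 was -0.093, against 0.57 for all measured entries. Entries with many reads were themselves shifted less: the median was 0.29 over the 397 entries whose higher library held at least 2000 reads, a class that holds Ckm, Ckmt2 and Ak1, and 6.80% of those were at least 2-fold lower.

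Comparisons between pairs of the 9 genes order them without any scaling. Of 36 pairs, 22 had a ratio of ratios whose interval excludes 1, with no allowance for the number of pairs. Ckm and Ckmt2 formed the low end, followed by Ak1 and Ak3. Each step up this order had an interval that excludes 1 except that between Ckm and Ckmt2. Ckmt1, Slc6a8, Gatm and Gamt followed, and no pair among these 4 was distinguishable. Of these only Slc6a8 was above Ak3 by an interval that excludes 1, at 1.52-fold (1.23 to 1.88). Ckb, at the high end, was above Slc6a8 by 1.26-fold (1.03 to 1.54), but not distinguishable from Ckmt1, Gatm or Gamt.

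**Figure D4:**
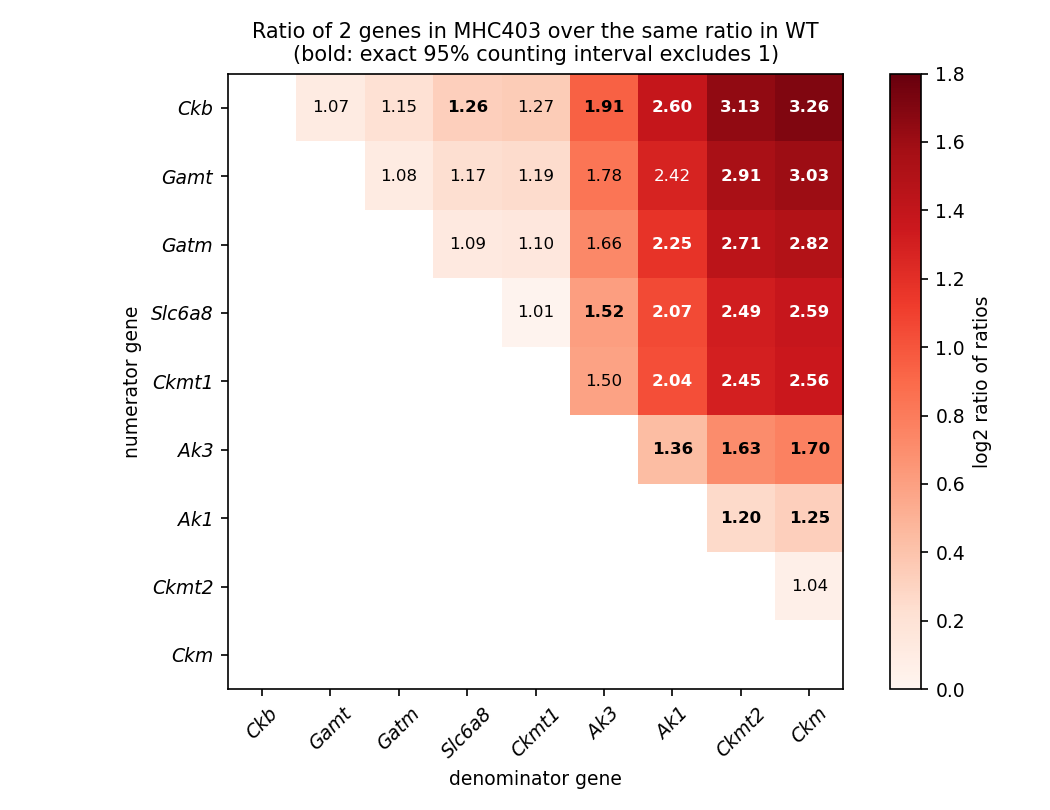
For each pair of genes, the read ratio of the row gene to the column gene in MHC403 divided by the same ratio in WT, coloured on a log2 scale, with values in bold where the exact 95% counting interval excludes 1. Genes run from the highest ratio (Ckb) to the lowest (Ckm), and the columns of Ckm and Ckmt2 hold values up to 3.26 and 3.13.

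Genes linked to adenine nucleotide handling were counted in the same way. Of 45 genes in 7 lists 43 were in the table, 29 were measured, and 9 of these passed 2-fold upward and none downward, that is 31.0% upward against 26.1% of all measured entries. Their median log2 ratio was 0.44, against 0.57 for all measured entries. With median-of-ratios scaling 5 of the 29 passed 2-fold upward and 1 downward, against 10.9% and 7.59% of all measured entries.

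AMP and adenosine enzymes held most of the higher genes, with 5 of 7 measured past 2-fold upward, against 26.1% of all measured entries, and none downward. Their median log2 ratio was 1.34, against 0.57 for all. Ampd2, an AMP deaminase, had 98 reads in MHC403 and 20 in WT, 4.91-fold (3.01 to 8.39) higher. Its relative Ampd3 had 238 in MHC403 and 94 in WT, 2.54-fold (1.99 to 3.26) higher. Adssl1, the muscle adenylosuccinate synthase that rebuilds AMP from IMP with adenylosuccinate lyase, had 1269 in MHC403 and 418 in WT, 3.04-fold (2.72 to 3.41). Nt5e, a surface enzyme that makes adenosine from AMP, had 149 in MHC403 and 44 in WT, 3.39-fold (2.41 to 4.87) higher. Aprt, which salvages adenine, had 298 in MHC403 and 138 in WT, 2.16-fold (1.76 to 2.67). Aprt shares its windows with a duplicate entry, and 53.4% of the 36-base words in the first 200 bases of Ampd2 occur in another annotated gene, so both counts are uncertain. Nt5e is widely expressed on fibroblasts and endothelium, and the fibroblast markers above were 6.61-fold (6.33 to 6.89) higher as a sum, whose part was not tested. With median-of-ratios scaling 3 of the 7 measured (Ampd2, Adssl1 and Nt5e) stayed past 2-fold, against 10.9% of all measured entries.

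Among AMPK subunits, which form the kinase that senses AMP, 2 of 6 measured passed 2-fold upward and none downward, against 26.1% upward of all measured entries, with a median log2 ratio of 0.44, against 0.57 for all. The list as a whole was thus near the background. Prkab2, the beta subunit typical of striated muscle, had 585 reads in MHC403 and 91 in WT, 6.44-fold (5.16 to 8.13) higher. Prkag2, a gamma subunit, had 98 in MHC403 and 48 in WT, 2.05-fold (1.43 to 2.95), and was within 2-fold with median-of-ratios scaling. Nucleoside diphosphate kinases pass phosphate between ATP and other nucleotides. Of 3 measured, 1 was at least 2-fold higher and none lower, against 26.1% higher of all measured entries. The median log2 ratio of this list was 0.55, near the 0.57 for all. The higher gene was Nme1, with 683 reads in MHC403 and 151 in WT, 4.53-fold (3.80 to 5.44), while Nme2 was 1.22-fold (1.16 to 1.29) higher. Nme1 shares 37.9% of the 36-base words in its first 200 bases with another annotated gene.

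Carriers that pass ATP, ADP and phosphate across the mitochondrial membranes stayed within 2-fold in all 6 measured cases, with a median log2 ratio of -0.20. Slc25a4, the muscle ADP/ATP translocase, had 12353 reads in MHC403 and 16293 in WT, 1.32-fold (1.29 to 1.35) lower. Slc25a5, the other measured translocase, had 821 in MHC403 and 530 in WT, 1.55-fold (1.39 to 1.74) higher, and shares 24.2% of the 36-base words in its first 200 bases with other genes. Vdac1, an outer membrane channel, was 1.37-fold (1.32 to 1.43) lower, and -1.01 on the log2 scale with median-of-ratios scaling. Its relative Vdac2 was 1.42-fold (1.31 to 1.54) higher. With median-of-ratios scaling Slc25a5 was at 0.087 and Vdac2 at -0.039 on the log2 scale. Slc25a5 and Vdac2 were named after their values were seen. The taurine transporter Slc6a6, a relative of Slc6a8, was the single measured gene of its list, with 1655 reads in MHC403 and 590 in WT, 2.81-fold (2.56 to 3.09) higher, or 0.94 on the log2 scale with median-of-ratios scaling. The candidate creatine carrier Slc16a12 had 5 in MHC403 and 3 in WT. Neither of the 2 measured genes in the list of other adenylate kinases was past 2-fold, beside the same shares of all measured entries. Ak4, a mitochondrial matrix enzyme, had a ratio of 1.34 (0.916 to 1.96). Of the 4 genes that supply the methyl donor used by Gamt none was past 2-fold, again beside those shares. Mat2a was at 1.18 (1.02 to 1.35) and Mat2b at 1.18 (0.997 to 1.40).

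**Figure D5:**
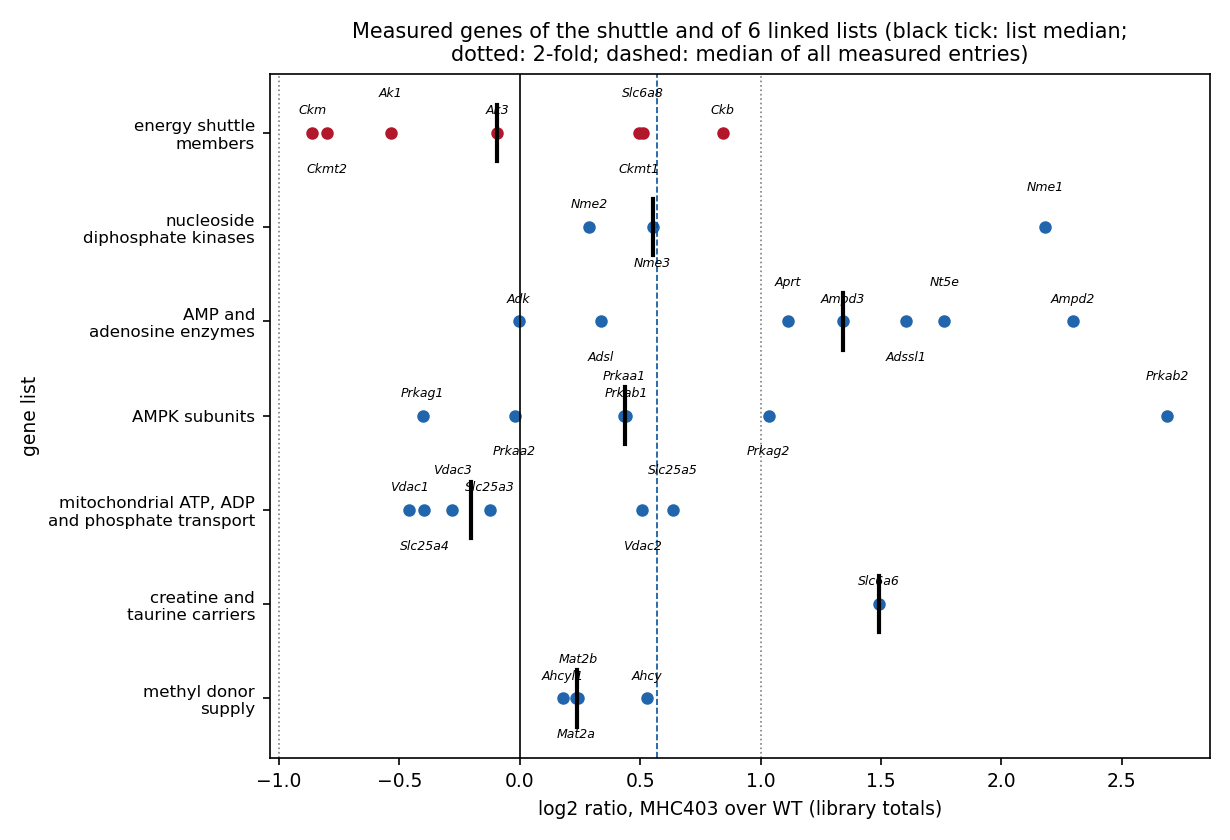
Log2 ratio of MHC403 over WT with library totals for the measured genes of the shuttle (top row) and of 6 of the linked lists (other adenylate kinases are not drawn), with black ticks at list medians, dotted lines at 2-fold and a dashed line at the median of all measured entries. The shuttle and the mitochondrial carriers have medians below 0, at -0.093 and -0.20, and the AMP and adenosine enzymes have the highest median of a list with more than 1 measured gene, at 1.34.

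The authors' deposited table also gives a start-site score per gene, with a formula not given in the sources used here. A score above 0 is held, in the authors' deposited table, by 34.7% of entries with at least 20 reads in both libraries, with a median of 8 among those, and 5 of the 8 shuttle genes with that depth do. In the authors' deposited table the highest of these are Ak3 at 23, above 81.0% of scored entries, and Slc6a8 at 18, above 74.0%. The authors' deposited table gives 8 for Ckm, 5 for Ak1, 1 for Gatm and 0 for Ckb, Ckmt1 and Ckmt2. Slc6a8 has 3 annotated starts and Ak3 has 1, and the table holds 1 read count per gene, so reads per start are not analysed here.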

How the data were processed

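The data were 1 table of 2 libraries, 1 per genotype, each made by the submitters from pooled biological replicates. TopHat 1.0.14 and mm9 are named in the submitters' processing notes, while the sources used here name no counting program, strand setting or read length. Raw counts for every gene are, per the file headers, what the authors deposited first, and in the table they lie in windows around annotated starts. The normalized values the authors deposited equalled RPM over all listed entries when recomputed (largest difference 4.94e-06). A fold column, also from the authors, divides these RPM. The authors' deposited p-value, from a test that is not stated, was not used, and the authors' deposited start-site score is quoted as given.

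Ratios and exact intervals were computed with scipy 1.17.1, and their coverage was tested on simulated data. The simulated counts held counting error only, so they do not test the intervals against amplified copies or differences between animals. With 1 library per genotype no test between genotypes was made. At 50 reads in each library the interval of a ratio of 1 runs from 0.662 to 1.51. Alternatives were median-of-ratios scaling (DESeq2 1.42.0), TMM scaling (edgeR 4.0.16), totals without the mitochondrial chromosome, other read minimums and other folds. Starts are written 1-based on mm9. Promoters are RefSeq's, on another build, and 36-base words were taken from GENCODE M21 transcripts. The 9 genes and all lists were chosen with earlier results of these data known. Named genes were the 9, and in each list every measured gene past 2-fold or, with fewer than 2 of these, the 2 with most reads. A gene that this rule names is not reported here. Without molecular identifiers, amplified copies count as separate reads. Of the other marker lists, summed RPM was 452 in MHC403 and 352 in WT for endothelium, 282 in MHC403 and 89.2 in WT for macrophages, and 546 in MHC403 and 438 in WT for adipocytes, where Adipoq and Lep were at 0 in both.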

Additional observations from a re-analysis of the deposited data

Results flagged for a closer look

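Reads were also listed for entries that lie in the loci of the 9 genes and enter no comparison above, and 2 of these entries had more reads in MHC403 than in WT beyond counting error. Of all measured entries 63.2% had intervals above a ratio of 1, and the median log2 ratio of all measured entries was 0.57, near both values. The entry CRT (chromosome X, 70920977 to 70922760, plus strand) is described in the file as creatine transporter mRNA and lies inside Slc6a8. It had 210 reads in MHC403 and 125 in WT, a log2 ratio of 0.75 and a ratio of 1.68 (1.34 to 2.12). Its ratio was 1.18 times (0.926 to 1.51) that of Slc6a8, an interval that includes 1. The entry 1700018L02Rik (chromosome 19, 29121973 to 29123219, plus strand), described in the file as adenylate kinase 3 alpha like, covers the start of Ak3 on the opposite strand. It had 113 reads in MHC403 and 72 in WT, a log2 ratio of 0.65 and a ratio of 1.57 (1.16 to 2.14). Its ratio was 1.68 times (1.16 to 2.43) that of Ak3. With median-of-ratios scaling the log2 ratios were 0.20 (-0.12 to 0.54) for CRT and 0.11 (-0.33 to 0.55) for 1700018L02Rik, and both intervals include 0. Neither difference has a replicate check.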

How the results depend on the processing

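No paired analysis was possible because each genotype has 1 pooled library, and no replicate could be left out. With median-of-ratios scaling and with TMM scaling alike, log2 ratios were -1.41 for Ckm, -1.35 for Ckmt2, -1.08 for Ak1, -0.64 for Ak3 and 0.30 for Ckb. Under these the signs of Ckmt1 (-0.055 and -0.052) and Slc6a8 (-0.035 and -0.033) were reversed. Without the mitochondrial chromosome in the totals the values were -1.15 for Ckm, -1.09 for Ckmt2, -0.83 for Ak1, -0.39 for Ak3, 0.55 for Ckb and 0.22 for Slc6a8. Ckmt1 under this last setting, and Gatm and Gamt under all 3, moved within their counting intervals. These shifts follow from the scaling factors themselves, by -0.55, -0.55 and -0.29. Of the shuttle genes 3, 3 and 2 were then at least 2-fold lower, and at 1.5-fold with library totals 1 was higher and 2 lower, against 49.1% and 5.62% of all measured entries. Of the linked genes 5 were at least 2-fold higher and 1 lower (Vdac1) with both median-of-ratios and TMM scaling, against 10.9% higher under both and 7.59% and 7.55% lower for all measured entries. With a minimum of 20 reads 9 linked genes were at least 2-fold higher, and with 1 read in each library 12 were. In both settings 1 linked gene was lower, since more genes enter. This was Nme4, with 10 reads in MHC403 and 25 in WT, chosen after its values were seen. Shares of all entries at these minimums were not computed. With a minimum of 200 reads 6 were higher and none lower, against 24.7% and 2.50% of all entries with that depth. With other denominators the shares were 3.08% in MHC403 and 0.982% in WT for Ckb and 0.628% in MHC403 and 0.255% in WT for Ckmt1 among all 4 creatine kinases, and 8.90% in MHC403 for Ak3 among all adenylate kinases. The 3 odds ratios moved within their intervals. In all, 32 of 68 alternative values stayed within counting error or 1.5 times of a count. Depth limits Ckmt1, Gatm and Gamt most.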

Other observations

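Entries on the strand opposite to the muscle-type kinases had reads as well. AK020867 (chromosome 7, 20002815 to 20006766, minus strand), whose counted window lies at the far end of Ckm, had 725 reads in MHC403 and 1238 in WT. It was 1.70-fold (1.55 to 1.87) lower in MHC403, and its ratio was 1.07 times (0.967 to 1.17) that of Ckm, an interval that includes 1. AK018965 (chromosome 13, 92001037 to 92001647, plus strand), inside Ckmt2, had 19 reads in MHC403 and 45 in WT, 2.36-fold (1.35 to 4.28) lower. Without a stated use of strand, such reads cannot be assigned to an entry or to the kinase gene it overlaps.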
